A study of Mus musculus with 12 samples.

Results

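The genes described here are the NRF2 pathway with its classical targets and the enzymes of glutathione metabolism. They are 50 mouse genes chosen by symbol, named the members in what follows. Of these, 49 were listed among the 17576 genes of the expression table, Gpx2 was not analysed here, and 46 passed the filter for testing (at least 1 RPKM in at least 3 libraries; RPKM is the read number of a gene scaled to its length and to the size of the library). RNA was sequenced from C18-4 cells, an immortalised mouse line used as a model of spermatogonial stem cells, in 12 libraries, 3 for each of 4 groups. The study asked how a change in the long noncoding RNA lncRNA5251 alters gene expression. KD cells carried the LV3 lentiviral vector with a mixture of shRNAs against lncRNA5251 and 3NC cells carried LV3 with a control sequence. A heading in the supplementary methods gives lncRNA8276 for the C18-4 experiment, where the labels and the main methods give lncRNA5251, and the labels were followed here. OV cells carried the LV5 vector with the lncRNA5251 sequence and 5NC cells carried LV5 alone. All were stably transfected cells grown in DMEM/F12 with serum, and the labels give the strain as IRC mouse. No label says whether the 3 libraries of a group came from separate cultures, so the p-values measure the spread between these libraries, which may be technical. KD and 3NC share a vector, as do OV and 5NC, and a comparison of 5NC with 3NC cannot tell vector and culture apart.

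NRF2, the protein of Nfe2l2, is a transcription factor that is held in the cytoplasm and marked for degradation by KEAP1, a sensor whose cysteines react with oxidants and electrophiles. When KEAP1 is modified, NRF2 accumulates, pairs with a small MAF protein and binds antioxidant response elements in front of genes for glutathione synthesis, glutathione transferases, quinone and heme breakdown, thioredoxin recycling and NADPH supply. In the male germ line the same systems guard DNA and membranes against reactive oxygen.

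The antioxidant response element core was looked for as TGACNNNGC, on either strand, in reference promoter windows from 250 bases before to 50 bases after the annotated start (RefSeq, GRCm38.p6). It was present in 4071 of 32851 windows of all genes (12.4%), in 14.1% of windows of the genes tested and in 14 of 54 windows of the members (25.9%). By gene, it was present in 13 of the 42 members with a window (31.0%), beside 16.8% of the genes tested. The core can hold the AP-1 site TGACTCA, and did in 2 of these 13 members, Prdx1 and Me1. The stretches below are shown because they lie at the promoters of the regulator itself and of members on which the results turn. Each reads 5′ to 3′ on the strand of the gene, with the core in capitals.

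Nfe2l2 (chr2:75704885-75704913, minus strand): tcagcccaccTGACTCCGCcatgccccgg
Gclm (chr3:122245413-122245441, plus strand): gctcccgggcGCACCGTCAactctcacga
Txnrd1 (chr10:82859104-82859132, plus strand): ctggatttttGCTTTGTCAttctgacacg
Srxn1 (chr2:152105542-152105570, plus strand): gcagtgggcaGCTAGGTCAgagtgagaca
Prdx1 (chr4:116685456-116685484, plus strand): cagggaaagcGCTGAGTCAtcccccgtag
G6pdx (chrX:74428919-74428947, minus strand): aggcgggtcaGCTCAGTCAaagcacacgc
Pgd (chr4:149166061-149166089, minus strand): atttcagagcTGACATTGCactgatcgga
Me1 (chr9:86695902-86695930, minus strand): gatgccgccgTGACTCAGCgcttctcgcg

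These matches are a description of letters and not of binding. The core began 134 bases before the start of the window's transcript in Gclm and 92 before it in Txnrd1, and it lay after that start in Srxn1 and Pgd. For Txnrd1 and Pgd this start lies inside the gene. The gene itself begins at chr10:82833951 for Txnrd1 and, on the minus strand, at chr4:149166705 for Pgd. No window was given for Hmox1, Gclc, Gsr, Gsta4, Gstt2, Aldh3a1 and Abcc1.

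The libraries were alike in depth and rank order. The summed RPKM ran from 533099 to 580920. The relative depth, read from the steps of low values in 42 genes, lay between 0.962 and 1.07 of the first 3NC library, and the read number itself is unknown. Spearman correlations within a group were 0.992 or higher over the tested genes. The members held 1.75% to 1.78% of the summed RPKM in 3NC, 1.57% in each KD library, 1.51% to 1.52% in 5NC and 1.60% to 1.73% in OV. LncRNA5251 had no entry of its own, so its level was not analysed here. The 3 knockdown sequences of the study each had an exact match in transcripts of 1 annotated gene, Purb, and KD libraries had 9.32 ± 0.806 RPKM of Purb, where 3NC had 33.6 ± 0.624, 5NC 30.7 ± 1.46 and OV 27.1 ± 5.30 (mean and SD of 3 libraries). Whether lncRNA5251 is a transcript apart from Purb was not tested. Of 21 spermatogonial markers, 19 were listed and 4 passed the filter. Over all libraries these 4 were Uchl1 at 60.06 to 122.73 RPKM, Etv5 at 2.18 to 7.89, Itga6 at 2.81 to 7.76 and Id4 at 0.83 to 1.82. Ret, Nanos2, Kit and Pou5f1 were listed at 0 in every library and Gfra1 was at most 0.17 RPKM, so the labelled cell type was not borne out by most of the markers listed for it. Of 12 Sertoli cell markers 5 passed, with Wt1 at 49.8 to 57.5 RPKM and Sox9 at 0.03 or less, and of 7 Leydig and 7 immune markers 1 each passed. Mesenchymal markers (8 of 11 passed) summed to 1139 to 1181 RPKM in 3NC, 1418 to 1480 in KD, 1464 to 1514 in 5NC and 1597 to 1732 in OV. Single markers differed more than the sum. In 5NC against 3NC, Dcn was higher by 2.32 log2 units, Col3a1 by 1.68 and Acta2 by 1.22, while 1 marker, Pdgfra, was lower (-0.31). The part of any of these markers in the results below was not tested. In bulk RNA, fewer cells of a type and less RNA per cell cannot be told apart.

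In what follows, a change in KD or in 5NC is against 3NC and a change in OV is against 5NC, given as log2 fold change ± standard error, and levels are RPKM in replicates 1, 2 and 3. Many of the classical NRF2 targets were lower in the knockdown than in its control. Of the 46 tested members, 25 (54.3%) were lower and 8 (17.4%) higher in KD than in 3NC (limma on log2(RPKM + 1), Benjamini-Hochberg adjusted p of at most 0.05), against 23.5% lower and 31.9% higher among all 11435 genes tested. The median log2 fold change was -0.28 for the members and 0.04 for all genes tested. Past the 2-fold threshold (adjusted p of at most 0.001, log2 change of at least 1 in size), 5 members were lower and 0 higher, against 1.08% and 0.498% of all genes. These 5 were Gsta1, Hmox1, Gsta4, Srxn1 and Txnrd1. At an unadjusted p of at most 0.05, 0 members were at least 2-fold higher as well. The 8 that were higher were Gstt1, Gstm5, Sod1, Me1, Txn1, Tkt, Prdx1 and Gpx1.

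In the LV5 pair most members did not pass the test. Of the 46, 13 (28.3%) were higher and 1 (2.17%) lower in OV than in 5NC and 32 did not pass, against 8.07% higher and 13.9% lower of all genes tested, with a median of 0.11 beside -0.03 for all genes. The median of the members was 0.053 without OV replicate 1 and 0.053 after quantile normalization. By limma, 0 members and 0% of all genes passed the 2-fold threshold in either direction, while 22 members had an unadjusted p of at most 0.05, 0 of them at 2-fold. OV replicate 3 had a lower summed RPKM (537526) than OV replicates 1 and 2 (580920 and 566543), and without it 21 members were higher. Leaving out any other library of the pair gave 9 to 15 higher. After quantile normalization 933 genes were higher and 948 lower in OV among all genes, and 11 members were higher and 0 lower.

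Between the control cells, more of the members passed the test than in either manipulation. Of the 46 members, 35 (76.1%) were lower and 4 (8.70%) higher in 5NC than in 3NC, against 25.6% lower and 31.0% higher of all genes. Of the members, 8 were at least 2-fold lower and 0 at least 2-fold higher, against 1.05% and 1.56%. The median was -0.41 for the members and 0.02 for all genes. KD against 3NC and 5NC against 3NC share the 3NC libraries, so they are not independent of each other. In 20 of the 46 members the 3NC libraries lay above all 9 other libraries, against 9.58% of all genes tested. Nfe2l2, Nqo1, Hmox1, Gclc, Gclm, Srxn1 and Txnrd1 were among them. In 1 member (Gpx1) they lay below all others, against 11.6%. The 5NC libraries lay below all others in 9 members, against 3.87% of all genes, and above all others in 1, Gsta3, against 5.60%.

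With 5NC in place of 3NC as the control, the median change of the members in KD turned in sign. By that comparison 23 members were higher and 12 lower, against 34.0% and 31.4% of all genes, and 1 was at least 2-fold higher (Gstt1) and 2 at least 2-fold lower (Hmox1 and Gsta3), against 1.26% and 2.29%. The median was 0.14, where it had been -0.28 against 3NC. Of the 25 members lower in KD than in 3NC, 10 were also lower against 5NC (Abcc4, Gclm, Gsta1, Gsta3, Gsta4, Gstp2, Hmox1, Nfe2l2, Sod2 and Txnrd1). Another 10 were higher against 5NC (Abcc1, Blvrb, Cbr3, Esd, G6pdx, Mgst2, Nqo1, Osgin1, Pgd and Srxn1), and 5 did not pass the test there (Fth1, Gclc, Gsr, Gsto1 and Gstp1). Of the 8 members higher in KD than in 3NC, 7 were also higher against 5NC and Gpx1 did not pass the test. Both comparisons share the KD libraries. These splits were not made over all genes tested, so whether they are particular to the members is not known. LV3 and LV5 go with the 3NC and 5NC cultures, so the vector cannot be told apart from the culture.

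**Figure D1:**
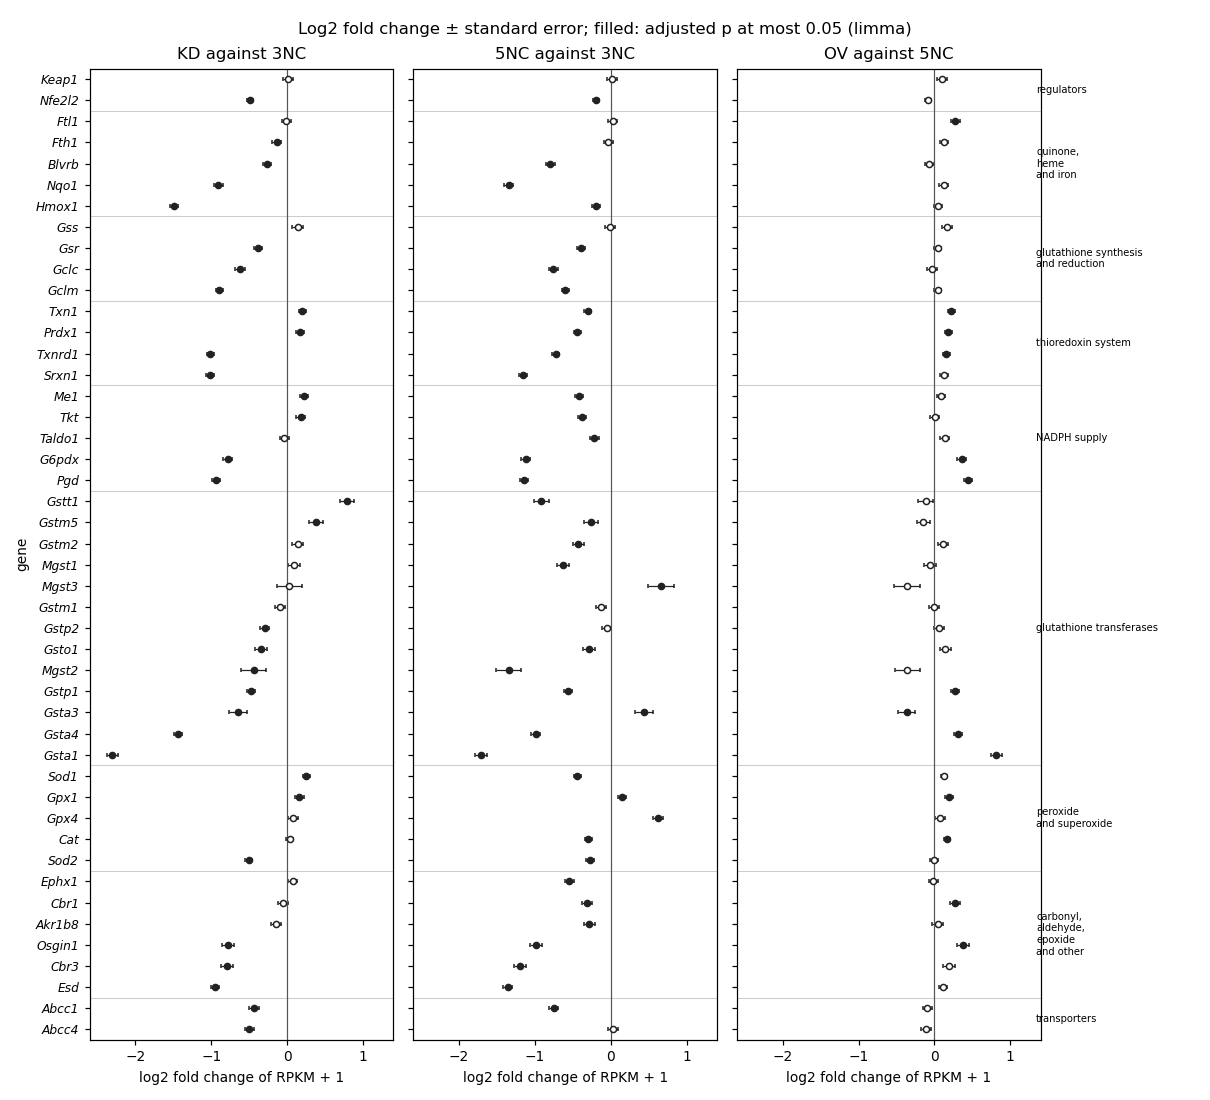
Log2 fold changes of the tested members in KD against 3NC, 5NC against 3NC and OV against 5NC, with members grouped by role, on log2(RPKM + 1). In KD 25 members were lower and 8 higher, in 5NC 35 were lower and 4 higher, and in OV 13 were higher and 1 lower.

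Nfe2l2 encodes NRF2 itself. Its RPKM was 50.4, 52.1 and 49.7 in 3NC, 36.1, 34.5 and 37.1 in KD, 44.03, 43.7 and 44.96 in 5NC, and 42.6, 40.9 and 41.4 in OV. All 3 KD libraries lay below every other library, and the fall in KD was -0.49 ± 0.04 log2 units (limma adjusted p = 2.85e-07). In 5NC it was also lower than in 3NC (-0.19 ± 0.04 log2 units, limma adjusted p = 0.00151), and between OV and 5NC the change was -0.09 ± 0.04 log2 units (limma adjusted p = 0.162), which did not pass the test. Keap1, the gene of the repressor, was at 16.1, 15.6 and 15.3 in 3NC, 16.2, 16.9 and 14.3 in KD, 16.1, 15.1 and 16.4 in 5NC, and 18.6, 16.9 and 15.8 in OV. Its groups overlapped. It did not pass the test in KD (0.01 ± 0.07 log2 units, limma adjusted p = 0.922) or in OV (0.10 ± 0.07 log2 units, limma adjusted p = 0.297), and its sign in KD turned after quantile normalization.

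Of the 5 genes of quinone, heme and iron handling, 4 fell in KD, 3 were lower in 5NC and 1 rose in OV. Among all genes tested, 23.5% were lower and 31.9% higher in KD. In 5NC 25.6% were lower and 31.0% higher, and in OV 13.9% and 8.07%. The counts by role here and below stand beside these shares and are of few genes each. Nqo1, which reduces quinones in a single step that avoids radicals, was at 22.3, 23.04 and 24.1 in 3NC, 11.1, 12.7 and 11.9 in KD, 8.36, 8.76 and 8.40 in 5NC, and 9.23, 9.45 and 9.34 in OV. The 4 groups did not overlap, with 3NC highest, KD next and 5NC lowest. The change was -0.90 ± 0.06 log2 units (limma adjusted p = 7.42e-09) in KD and -1.34 ± 0.06 log2 units (limma adjusted p = 6.38e-11) in 5NC against 3NC. In KD against 5NC it was 0.44 ± 0.06 log2 units (limma adjusted p = 8.36e-06), so the direction turned with the control. Hmox1, which opens heme to biliverdin, carbon monoxide and iron, read 108, 112 and 111 in 3NC, 40.2, 38.1 and 37.7 in KD, 98.05, 92.1 and 98.7 in 5NC, and 105, 100.3 and 92.9 in OV. All KD libraries were far below every other library. The fall was -1.49 ± 0.05 log2 units (limma adjusted p = 1.49e-11), and against 5NC it was -1.29 ± 0.05 log2 units (limma adjusted p = 2.09e-11). In OV it did not pass the test (0.04 ± 0.05 log2 units, limma adjusted p = 0.546). Blvrb, which reduces biliverdin and flavins, was lower in KD and in 5NC than in 3NC (-0.26 and -0.80 log2 units), and higher in KD than in 5NC (0.53). The ferritin subunits, which store iron, were among the most abundant transcripts of the cells. Ftl1, the light chain, ranked 13 of all genes in 3NC and was at 2421, 2359 and 2411 in 3NC, 2310.0, 2461 and 2369 in KD, 2464, 2386 and 2459 in 5NC, and 3248, 2968 and 2661 in OV. It rose in OV (0.28 ± 0.06 log2 units, limma adjusted p = 0.00728), in the order of the summed RPKM of the OV libraries, and 62.9% of its 35-base words were also in transcripts of other genes, mostly its pseudogene Ftl1-ps1. Fth1, the heavy chain, ranked 42 and fell in KD (-0.14 ± 0.06 log2 units, limma adjusted p = 0.0483).

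Of the 4 genes that make and reduce glutathione, 3 fell in KD and 3 were lower in 5NC than in 3NC. Gclc, the catalytic subunit of glutamate-cysteine ligase, which sets the rate of synthesis, was at 16.2, 16.7 and 15.8 in 3NC, 10.3, 9.33 and 11.1 in KD, 9.46, 9.31 and 8.83 in 5NC, and 8.88, 8.82 and 9.31 in OV. Its change was -0.62 ± 0.06 log2 units (limma adjusted p = 1.11e-06) in KD and -0.76 ± 0.06 log2 units (limma adjusted p = 1.02e-07) in 5NC. Gclm, the modifier subunit, was at 38.3, 37.9 and 36.6 in 3NC, 20.3, 19.3 and 19.96 in KD, 23.8, 24.7 and 25.01 in 5NC, and 26.1, 24.5 and 25.4 in OV. The KD libraries of Gclm were lowest and those of 3NC highest. Its change was -0.89 ± 0.05 log2 units (limma adjusted p = 1.02e-09) in KD, -0.60 ± 0.05 log2 units (limma adjusted p = 4.47e-08) in 5NC and 0.05 ± 0.05 log2 units (limma adjusted p = 0.492) in OV. Gsr, which reduces glutathione disulfide with NADPH, changed by -0.38 log2 units in KD and by -0.40 in 5NC, both past the test. Gss, which adds glycine, did not pass the test in KD (0.14 ± 0.07 log2 units, limma adjusted p = 0.0982), in 5NC or in OV.

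Within the thioredoxin system, the reductase and sulfiredoxin fell in KD while thioredoxin and peroxiredoxin rose. Txnrd1, the cytosolic thioredoxin reductase, was at 131, 131 and 129.8 in 3NC, 66.5, 65.1 and 61.5 in KD, 81.8, 78.7 and 75.7 in 5NC, and 84.6, 89.9 and 89.1 in OV. In KD it fell (-1.01 ± 0.05 log2 units, limma adjusted p = 2.06e-10) and in 5NC it was lower than in 3NC (-0.72 ± 0.05 log2 units, limma adjusted p = 4e-09). In OV it was higher than in 5NC (0.16 ± 0.05 log2 units, limma adjusted p = 0.0252). Srxn1, which repairs over-oxidised peroxiredoxins, was at 26.96, 27.5 and 26.5 in 3NC, 12.6, 12.8 and 13.1 in KD, 11.3, 10.9 and 12.5 in 5NC, and 12.99, 12.5 and 12.5 in OV. The KD, 5NC and OV libraries of Srxn1 all lay under the lowest 3NC library. Its change was -1.02 ± 0.05 log2 units (limma adjusted p = 1.37e-09) in KD and -1.15 ± 0.05 log2 units (limma adjusted p = 1.92e-10) in 5NC. In KD against 5NC it was 0.14 ± 0.05 log2 units (limma adjusted p = 0.0376). Txn1, thioredoxin, was at 486, 479 and 472 in 3NC, 534, 545 and 576 in KD, 395, 391 and 378 in 5NC, and 479.6, 454 and 425 in OV. It rose in KD (0.20 ± 0.05 log2 units, limma adjusted p = 0.00228) and in OV (0.22 ± 0.05 log2 units, limma adjusted p = 0.00687), while in 5NC it was lower than in 3NC (-0.30 ± 0.05 log2 units, limma adjusted p = 7.57e-05). Prdx1, a peroxide-reducing partner of thioredoxin, rose in KD (0.17 log2 units) and in OV (0.18), and was lower in 5NC than in 3NC (-0.44).

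Of the 5 enzymes that supply NADPH, 2 fell and 2 rose in KD, beside 23.5% lower and 31.9% higher of all genes tested. All 5 were lower in 5NC than in 3NC, beside 25.6% of all genes. G6pdx, the first enzyme of the pentose phosphate pathway, was at 54.03, 51.1 and 52.9 in 3NC, 30.5, 31.6 and 28.7 in KD, 22.3, 25.2 and 23.8 in 5NC, and 32.96, 30.2 and 29.00 in OV. It fell in KD (-0.78 ± 0.06 log2 units, limma adjusted p = 4.98e-08) and rose in OV (0.36 ± 0.06 log2 units, limma adjusted p = 0.00163), but against 5NC the KD libraries were higher (0.34 ± 0.06 log2 units, limma adjusted p = 0.000135). Pgd, the next NADPH-forming enzyme, was at 125, 119.8 and 126 in 3NC, 64.3, 67.7 and 60.5 in KD, 53.1, 55.8 and 56.8 in 5NC, and 79.1, 77.03 and 70.8 in OV. The groups of Pgd did not overlap and 3NC was highest. Its change was -0.94 ± 0.05 log2 units (limma adjusted p = 2.18e-09) in KD, -1.15 ± 0.05 log2 units (limma adjusted p = 1.41e-10) in 5NC against 3NC and 0.45 ± 0.05 log2 units (limma adjusted p = 0.000158) in OV. In KD against 5NC it was 0.21 ± 0.05 log2 units (limma adjusted p = 0.00254), again on the other side. For G6pdx, 21.8% of the 35-base words were shared with other genes. The malic enzyme Me1, which forms NADPH in the cytosol, was at 51.4, 50.04 and 48.2 in 3NC, 56.3, 56.6 and 62.7 in KD, 37.5, 37.4 and 35.8 in 5NC, and 39.5, 37.2 and 40.7 in OV. It rose in KD (0.23 ± 0.05 log2 units, limma adjusted p = 0.002), with 34.97% of its 35-base words shared, mostly with Gm7049. Transketolase, Tkt, was at 40.2, 38.8 and 40.3 in 3NC, 44.8, 46.8 and 44.00 in KD, 33.4, 28.04 and 29.9 in 5NC, and 31.3, 30.8 and 29.3 in OV. Its rise in KD (0.18 ± 0.06 log2 units, limma adjusted p = 0.0159) was lost when either 3NC replicate 2 or KD replicate 2 was left out. Taldo1, transaldolase, was lower in 5NC than in 3NC (-0.22 log2 units) and did not pass the test in KD or OV.

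**Figure D2:**
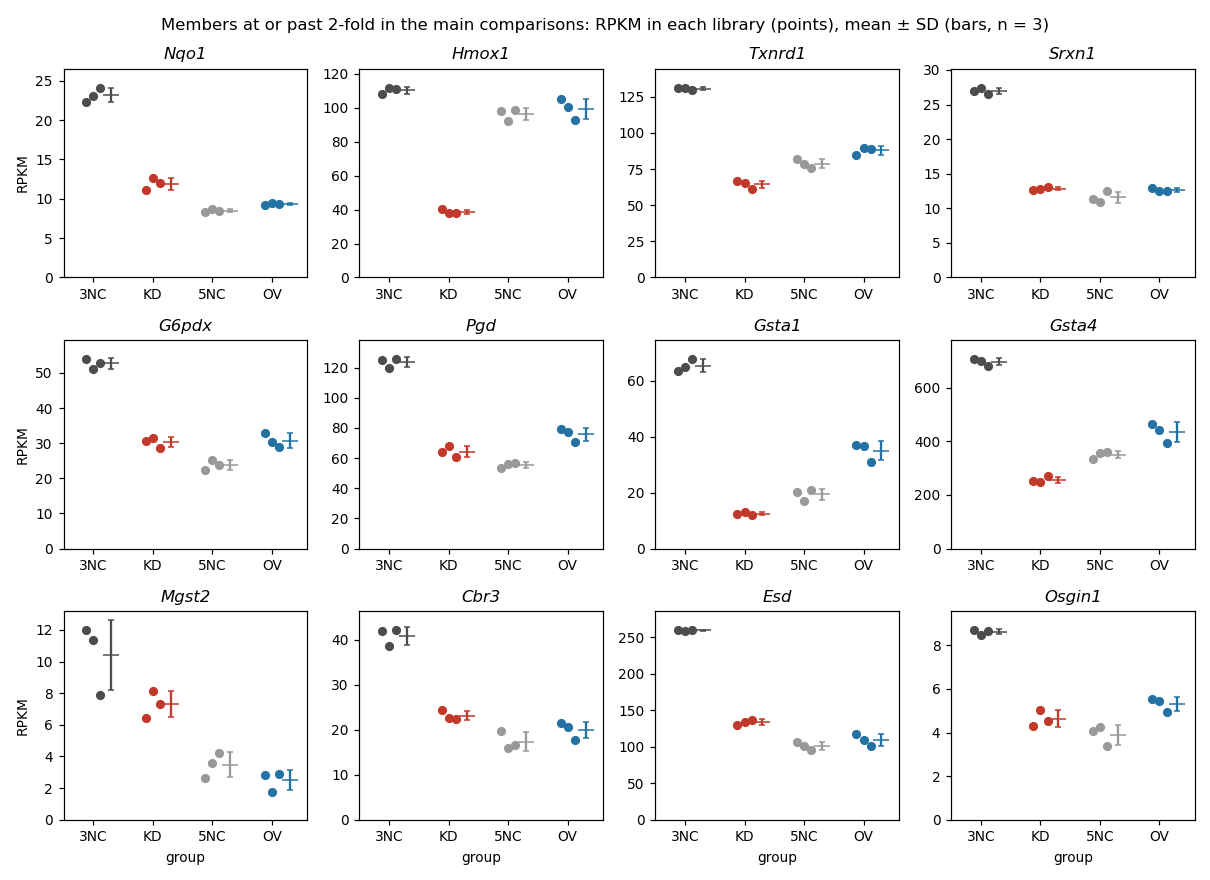
RPKM in each library in 1 panel for each of the 12 members at or past 2-fold in KD against 3NC, in 5NC against 3NC or in the difference between the effects of KD and OV, on linear axes that start at 0, with the libraries as points and bars for the mean and SD (n = 3). For Nqo1, Srxn1, Txnrd1 and Hmox1 the 3NC points lie above all others, and for Txnrd1 and Hmox1 the KD points also lie below all others (37.7 to 40.2 for Hmox1, with all others at 92.1 or more).

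The glutathione transferases, which join glutathione to electrophiles, ranged in KD from -2.30 to 0.79 log2 units. Of 15, 13 were tested, with 7 lower and 2 higher in KD, 9 lower and 2 higher in 5NC against 3NC, and 3 higher and 1 lower in OV. Gsta1, an alpha class enzyme, was at 63.5, 64.96 and 67.9 in 3NC, 12.3, 13.2 and 11.98 in KD, 20.2, 17.1 and 20.8 in 5NC, and 37.1, 36.7 and 31.01 in OV. The 4 groups did not overlap. Of the tested members it changed most in KD, in 5NC and in OV, with -2.30 ± 0.08 log2 units (limma adjusted p = 1.49e-11) in KD (4.93-fold lower), -1.71 ± 0.08 log2 units (limma adjusted p = 1.05e-10) in 5NC and 0.82 ± 0.08 log2 units (limma adjusted p = 2.54e-05) in OV. Of its 35-base words, 92.4% were shared with other transcripts, mostly the predicted gene Gm3776 (79.3%), so how reads were split between them depended on the authors' mapping. Gm3776 itself was at 1.79 to 4.92 RPKM in 3NC and 0 to 0.42 in KD. Gsta4, which conjugates the lipid peroxidation product 4-hydroxynonenal, had no shared word and was at 708, 701 and 683 in 3NC, 253, 247 and 269.7 in KD, 335, 355 and 361 in 5NC, and 466, 444 and 395 in OV. It ranked 123 of all genes in 3NC and its groups did not overlap. Its change was -1.44 ± 0.06 log2 units (limma adjusted p = 6.77e-11) in KD, -0.99 ± 0.06 log2 units (limma adjusted p = 1.62e-09) in 5NC and 0.31 ± 0.06 log2 units (limma adjusted p = 0.00322) in OV. Gsta2, with 58.3% of its words shared, stayed under the filter, at 0.65 to 1.48 RPKM in 3NC and 0.09 to 0.25 in KD.

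Gsta3, a transferase that also isomerises steroid intermediates, was low, at 1.32, 0.690 and 1.38 in 3NC, 0.360, 0.360 and 0.310 in KD, 2.18, 1.69 and 1.69 in 5NC, and 1.30, 1.14 and 1.18 in OV. Its fall in OV, -0.37 ± 0.12 log2 units (limma adjusted p = 0.0373), was the only significant decrease among the members there and did not pass the test under 3 other settings (adjusted p from 0.0677 to 0.0939) or when any library of the pair except OV replicate 3 was left out (0.0627 to 0.132). In KD it fell (-0.65 ± 0.12 log2 units, limma adjusted p = 0.000257, on a scale that understates the change of such low genes), and in 5NC it was higher than in 3NC (0.43 ± 0.12 log2 units, limma adjusted p = 0.0054). The mu class transferase Gstm5 was at 40.5, 36.1 and 38.7 in 3NC, 48.8, 54.7 and 47.6 in KD, 33.7, 31.9 and 30.2 in 5NC, and 33.02, 29.3 and 24.4 in OV. It rose in KD (0.38 ± 0.09 log2 units, limma adjusted p = 0.00171), whereas Gstm1 (26.3% of its words shared) did not pass the test and Gstm2 was lower in 5NC than in 3NC (-0.43 log2 units). The pi class gene Gstp1 ranked 88 in 3NC with a mean of 1021 RPKM there. It fell in KD (-0.47 log2 units), was lower in 5NC than in 3NC (-0.56) and rose in OV (0.27). Gstp1 and Gstp2 share words with each other (37.5% of Gstp1 and 53.4% of Gstp2), so their reads may have been split. Gstt1, a theta class transferase, was at 7.07, 6.62 and 6.41 in 3NC, 11.4, 11.9 and 13.8 in KD, 3.46, 2.69 and 3.12 in 5NC, and 3.31, 2.49 and 2.54 in OV. KD lay above all other groups (0.79 ± 0.10 log2 units, limma adjusted p = 6.48e-06), while 5NC was lower than 3NC (-0.92 ± 0.10 log2 units, limma adjusted p = 1.3e-06). Gstt2 was at most 0.30 RPKM in every library.

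The membrane-bound transferases followed different orders. Mgst2, which can make leukotriene C4, was at 12.01, 11.4 and 7.86 in 3NC, 6.46, 8.13 and 7.34 in KD, 2.63, 3.58 and 4.23 in 5NC, and 2.84, 1.78 and 2.89 in OV. Its change in 5NC against 3NC was -1.34 ± 0.16 log2 units (limma adjusted p = 5.25e-06). In KD it was lower than in 3NC (-0.44 ± 0.16 log2 units, limma adjusted p = 0.0304) and higher than in 5NC (0.90 ± 0.16 log2 units, limma adjusted p = 0.000175). Mgst3, its relative, was at 3.05, 4.96 and 3.95 in 3NC, 4.97, 3.25 and 4.02 in KD, 6.56, 5.78 and 8.27 in 5NC, and 6.24, 5.41 and 3.84 in OV. It was higher in 5NC than in 3NC (0.66 ± 0.17 log2 units, limma adjusted p = 0.0035). Mgst1, the microsomal enzyme, was lower in 5NC than in 3NC (-0.63 log2 units) and did not pass the test in KD or OV, and Gsto1, the omega class enzyme, fell in KD (-0.34).

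**Figure D3:**
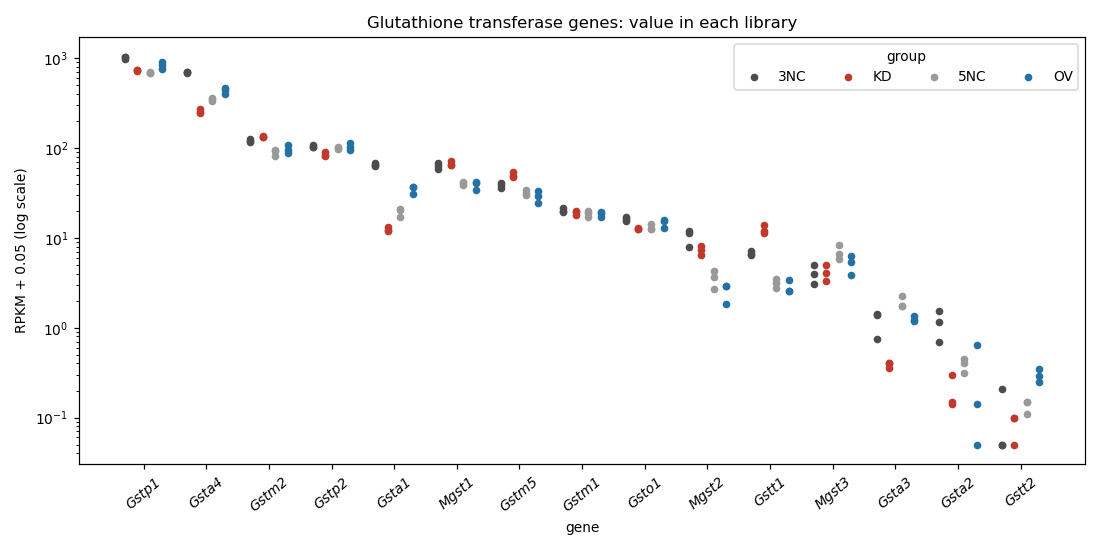
RPKM of the glutathione transferases in each library on a log axis, with 0.05 added so that values of 0 can be drawn. Gstp1 and Gsta4 lie highest, Gsta1 drops from 63.5 to 67.9 RPKM in 3NC to 11.98 to 13.15 in KD, and Gstt1 is the transferase with the highest KD points relative to 3NC.

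Of the 5 tested peroxide and superoxide enzymes, 2 rose and 1 fell in KD, near the shares of all genes tested (31.9% higher and 23.5% lower). Sod1, the cytosolic superoxide dismutase, was at 712, 705 and 707 in 3NC, 829, 854 and 852 in KD, 517, 508 and 538 in 5NC, and 594, 580.3 and 534 in OV. It rose in KD (0.26 ± 0.05 log2 units, limma adjusted p = 0.000212) and was lower in 5NC than in 3NC (-0.44 log2 units). Sod2, its mitochondrial counterpart, fell in KD (-0.51 ± 0.05 log2 units, limma adjusted p = 1.12e-06), with 25.2% of its words shared with other genes. Gpx4, which reduces lipid hydroperoxides and guards against ferroptosis, was at 200.3, 197 and 202 in 3NC, 211, 222 and 198 in KD, 332, 288 and 306 in 5NC, and 355, 322 and 297 in OV. Its 5NC and OV libraries lay above 3NC and KD without overlap (0.62 ± 0.06 log2 units, limma adjusted p = 1.1e-06 for 5NC against 3NC). Of its words 37.9% were shared with a pseudogene. Gpx1, which reduces hydrogen peroxide, was at 125, 121 and 133 in 3NC, 146, 133 and 145 in KD, 146, 138 and 136 in 5NC, and 174, 156 and 152 in OV. It rose in KD (0.16 ± 0.06 log2 units, limma adjusted p = 0.0262) and in OV (0.19 ± 0.06 log2 units, limma adjusted p = 0.0284). Its difference in 5NC (0.15 ± 0.06 log2 units, limma adjusted p = 0.0372) did not pass the test when 3NC replicate 1 or 2 or 5NC replicate 1 or 2 was left out (adjusted p from 0.0595 to 0.147), with no filter on low values (0.0644) or with no intensity trend (0.0631). Cat, catalase, did not pass the test in KD (0.03 ± 0.04 log2 units, limma adjusted p = 0.546), was lower in 5NC than in 3NC (-0.29 ± 0.04 log2 units, limma adjusted p = 4.41e-05) and rose in OV (0.16 ± 0.04 log2 units, limma adjusted p = 0.0181).

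Of the 6 tested carbonyl, aldehyde, epoxide and other detoxication genes, 3 fell in KD and all 6 were lower in 5NC than in 3NC. Cbr3, a carbonyl reductase, was at 41.9, 38.6 and 42.2 in 3NC, 24.3, 22.6 and 22.5 in KD, 19.7, 15.9 and 16.6 in 5NC, and 21.4, 20.6 and 17.8 in OV. Its change was -0.80 ± 0.08 log2 units (limma adjusted p = 8.13e-07) in KD and -1.19 ± 0.08 log2 units (limma adjusted p = 8.11e-09) in 5NC. Against 5NC, KD was higher (0.40 ± 0.08 log2 units, limma adjusted p = 0.00043). Esd, esterase D, which hydrolyses S-formylglutathione, was at 260.1, 259 and 259.8 in 3NC, 129.8, 134 and 137 in KD, 106, 101 and 94.8 in 5NC, and 118, 109 and 101 in OV. Its change was -0.95 ± 0.05 log2 units (limma adjusted p = 2.68e-09) in KD and -1.36 ± 0.05 log2 units (limma adjusted p = 3.39e-11) in 5NC. In KD against 5NC it was 0.41 ± 0.05 log2 units (limma adjusted p = 1.1e-05). Osgin1, an oxidative-stress-induced growth inhibitor, was at 8.71, 8.48 and 8.67 in 3NC, 4.32, 5.05 and 4.54 in KD, 4.05, 4.24 and 3.37 in 5NC, and 5.53, 5.44 and 4.96 in OV. With 3NC highest, it fell in KD (-0.77 ± 0.08 log2 units, limma adjusted p = 9.69e-07) and rose in OV (0.37 ± 0.08 log2 units, limma adjusted p = 0.0059), while against 5NC it was higher in KD (0.21 ± 0.08 log2 units, limma adjusted p = 0.0287). Of the remainder, Ephx1 and Akr1b8 did not pass the test in KD, and Cbr1, a carbonyl reductase, rose in OV (0.27 log2 units). Aldh3a1 was at 0.09 RPKM in each 3NC library and listed at 0 in the others, so it was not tested. The efflux pumps Abcc1 and Abcc4, which export glutathione conjugates, fell in KD (-0.44 and -0.50 log2 units). Against 5NC, Abcc1 was higher (0.32 ± 0.06 log2 units, limma adjusted p = 0.000275) and Abcc4 lower (-0.53 ± 0.07 log2 units, limma adjusted p = 4.52e-06).

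Between the manipulations the test of the difference itself was (KD minus 3NC) minus (OV minus 5NC), and no control was shared. Of 46 members, 24 had a lower and 2 a higher change in KD than in OV, against 20.7% and 31.2% of all genes, and 10 passed the 2-fold threshold on the low side and 0 on the high side, against 1.41% and 1.46%. The 10 were Gsta1, Gsta4, Hmox1, Pgd, Txnrd1, Osgin1, G6pdx, Srxn1, Esd and Nqo1. For Gsta1 the difference was -3.12 ± 0.11 log2 units (limma adjusted p = 1.24e-10), for Pgd -1.38 ± 0.07 log2 units (limma adjusted p = 3.4e-09) and for Nfe2l2 -0.40 ± 0.06 log2 units (limma adjusted p = 8.28e-05). Because each manipulation has its own vector and control, a difference between the controls enters this value.

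**Figure D4:**
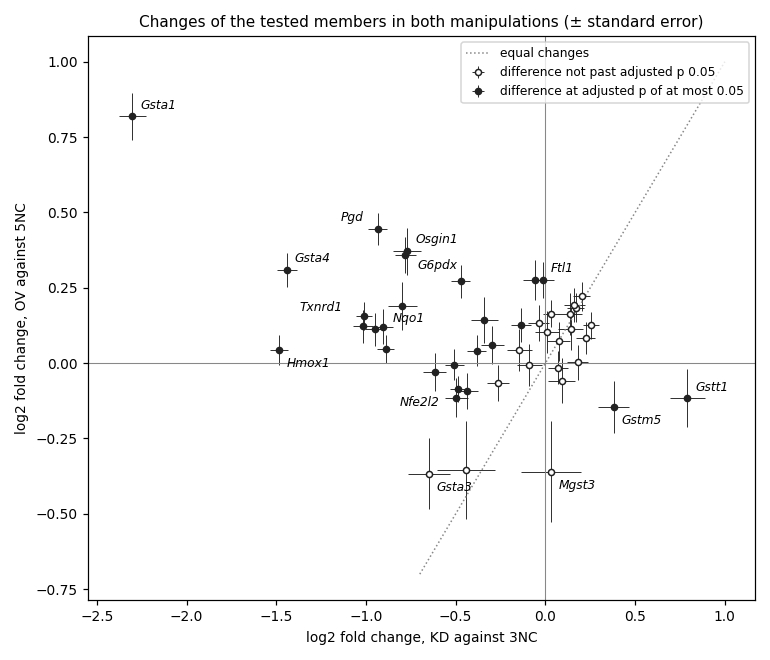
Log2 fold change of each tested member in KD against 3NC (horizontal axis) and in OV against 5NC (vertical axis), with standard errors. Filled points mark members whose changes differed between the manipulations (limma adjusted p up to 0.05), and Gsta1 (-2.30 and 0.82) lies farthest from the line of equal changes.

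Of 94 other genes of the pathway that are not members, 93 were listed and 70 tested, with 29 higher and 19 lower in KD (median 0.12), 6 higher and 9 lower in OV (0.01) and 28 higher and 18 lower in 5NC against 3NC (0.05). In OV the shares were 8.57% higher and 12.9% lower, near those of all genes tested (8.07% and 13.9%). In KD they were 41.4% and 27.1%, beside 31.9% and 23.5% of all genes, and in 5NC they were 40% and 25.7%, beside 31.0% and 25.6%. In KD the 5 at least 2-fold lower were led by Ugt1a6a, a glucuronosyltransferase (-1.38 log2 units), and Tfrc, the transferrin receptor (-1.27). The others were Slc7a11, the cystine carrier that supplies cysteine for glutathione (-1.15), Maff, a small MAF partner of NRF2 (-1.14), and Ugdh, which makes UDP-glucuronate (-1.01). Against 5NC, Ugdh was at -0.03 (limma adjusted p = 0.64). In OV the largest were Ugt1a6a (-0.41), Txnip, the thioredoxin inhibitor (-0.38), Dpp3, which binds KEAP1 (0.37), Slc7a11 (-0.37) and Gstm6 (-0.36). The call of Gstm6 was lost under 7 alternatives (limma adjusted p from 0.0783 to 0.151), and that of Slc7a11 when OV replicate 1, OV replicate 2 or 5NC replicate 2 was left out (0.0521 to 0.0559). Read sharing was computed for the members only, so for the other pathway genes, Ugt1a6a and Gstm6 among them, it is not known. Between the controls, 5 of these pathway genes were at least 2-fold higher in 5NC and 1 was at least 2-fold lower. Slc1a4, a neutral amino acid carrier (1.53), Chac1, a glutathione-degrading enzyme (38.5 to 43.1 RPKM in 3NC and 114 to 121 in 5NC), Cth, which makes cysteine (1.28), and Slc6a9, a glycine carrier (1.12), were among those higher, and Glrx, glutaredoxin, was the lower one (-1.25). The remaining higher gene, Rpia, an isomerase of the pentose phosphate pathway (1.06), lay beyond the 5 genes given per comparison and was added after its values were seen.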

How the data were processed

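RNA of 12 C18-4 libraries was analysed, grouped by the sample labels. The authors enriched mRNA with oligo(dT) beads, sequenced it on an Illumina instrument, mapped reads to reference genes with SOAPaligner and deposited RPKM values in 1 table of 17576 genes. The labels state total RNA, and the genome build and gene set are not given in the sources used here. RPKM keeps no read number and leaves reads of paralogs to the mapping. The authors' own test needs read numbers and was not run.

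The 11435 genes that reached 1 RPKM in 3 or more libraries entered the test, on log2(RPKM + 1) with limma 3.58.1 in R 4.3.3, 1 model over all libraries with eBayes and an intensity trend, two-sided, with Benjamini-Hochberg adjustment over all tested genes. "Changed" means an adjusted p of at most 0.05, and 2-fold an adjusted p of at most 0.001 with a log2 change of 1 or more in size. Errors given with log2 changes are standard errors, and the log2 scale with the added 1 understates changes of low genes. The fit was tested on simulated data. An exact permutation test of 3 against 3 libraries cannot give a p below 0.1.

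The members and gene lists were chosen with earlier results of these data known. Values in every library were given for members changed at least 2-fold in any comparison, for the 6 lowest and 6 highest changed members in KD, OV and 5NC, and for 8 genes always named (Nfe2l2, Keap1, Nqo1, Hmox1, Gclc, Gclm, Txnrd1 and Srxn1), with at most 5 other pathway genes per comparison. Read sharing was taken as the share of a gene's 35-base words, over its GENCODE M21 transcripts, found in transcripts of other genes. Alternatives were a pseudocount of 0.1, no filter, quantile normalization, only the libraries compared, a replicate block, no trend, each library left out, and 5NC as the control of KD. Plots were made in Python 3.11.15 (matplotlib 3.10.9).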

Additional observations from a re-analysis of the deposited data

Results flagged for a closer look

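For 10 members the change in KD against 3NC and the change in OV against 5NC differed by at least 2-fold at a limma adjusted p of at most 0.001, in a test of the difference itself. The difference, KD minus OV, was -3.12 log2 units for Gsta1, -1.75 for Gsta4, -1.53 for Hmox1, -1.38 for Pgd and -1.17 for Txnrd1. It was -1.15 for Osgin1, -1.14 for G6pdx, -1.14 for Srxn1, -1.06 for Esd and -1.03 for Nqo1. The adjusted p was at most 1.12e-06 in each of them. Of these members, Gsta1, Gsta4, Pgd, Txnrd1, Osgin1 and G6pdx also rose in OV on their own, and the others did not pass the test there. The rise of Txnrd1 in OV was small (0.16 log2 units, limma adjusted p = 0.0252) and was not recomputed under the alternatives. In each of the 10 the 3NC libraries lay above all 9 other libraries, and 3NC enters this difference on the KD side only.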

How the results depend on the processing

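With 5NC as the control, 23 members were higher and 12 lower in KD, 1 and 2 at 2-fold, and their median turned to 0.14, with Nqo1 at 0.44, Esd at 0.41 and Srxn1 at 0.14. In all, 10 of the 25 members lower in KD than in 3NC were higher against 5NC (also Abcc1, Blvrb, Cbr3, G6pdx, Mgst2, Osgin1 and Pgd), a split not made over all genes tested. Gclc, at 0.14 against 5NC (limma adjusted p = 0.0628), and Keap1, at -0.0055, did not pass the test there. Single members were recomputed in KD only for the 8 genes always named and the 6 lowest and 6 highest changed. Among these, Keap1 reversed outside that choice, to -0.011 after quantile normalization and ranged from -0.039 to 0.075 with 1 library left out, and it did not pass the test in any of these fits. In OV, 0 members were lower with a pseudocount of 0.1, with no filter and after quantile normalization, and the median after quantile normalization was 0.053. For the KD effect minus the OV effect, 1 member was at least 2-fold higher with a pseudocount of 0.1, and the median was -0.24 after quantile normalization. With 1 library left out, OV had 9 to 21 members higher, 0 to 1 lower and a median of 0.053 to 0.13, the difference between the effects had 0 to 1 member at least 2-fold higher (1 without OV replicate 1) and a median of -0.32 to -0.23, KD had 23 to 24 lower and 6 to 8 higher, and 5NC had 34 to 35 lower and 3 to 4 higher. The cause of these shifts was not tested.

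The replicate numbers did not pair the libraries, since 5 of 18 same-numbered pairs had deviations from their group means that correlated above 0.1 (r from -0.178 to 0.354). With the replicate block, 8 members were higher and 24 lower in KD, 13 higher and 1 lower in OV, 4 higher and 35 lower in 5NC, and 2 higher and 24 lower in the difference between the effects. Without read numbers, the precision of values under about 1 RPKM is not known, which bears on Gsta2, Gstt2 and Aldh3a1 and on Gsta3, at 0.31 to 0.36 RPKM in KD and 0.69 in 3NC replicate 2.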
